A study of Homo sapiens with 24 samples.

Results

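The 42 genes described here were taken from a list of heat shock proteins, DNAJ co-chaperones and the proteins that work with them. Every probe set whose single gene symbol in the platform annotation is one of the 42 was counted, which gave 91 probe sets for 37 of the genes, of 19775 genes with such a probe set. HSF2, HSPA1A, HSPA8, HSPB11 and AHSA1 had no probe set of a single symbol and have no value. For each gene the probe set of the highest mean signal stood for it, and 33 of the 42 were tested, among 11380 genes in all. The probe sets of HSPA1L, HSPA2, HSPA4L and HSPB1 lay below the filter on low signal, between 2.17 and 180 in intensity over all arrays for the brightest set of each gene.

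The cells were P3HR1, a Burkitt lymphoma cell line positive for Epstein-Barr virus. They held pRTS1, a vector from which doxycycline induces GFP alone (control) or GFP together with the miR-28 precursor (miR-28), and were profiled 12 h and 24 h after induction on Affymetrix arrays, 6 arrays in each of the 4 groups and 24 in all. Each genotype had 2 bulk populations, A and B, each induced 3 times, so that p-values measure the spread between inductions of 2 populations per genotype. All 24 arrays came from induced cells, and a difference that existed before induction cannot be told apart from one that followed it. For doxycycline, one field of the labels states 0.1 ug/ml and another 1 ug/ml.

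Chaperones of the HSP70 family bind exposed hydrophobic stretches of proteins, and DNAJ proteins bring them clients and stimulate their ATP hydrolysis through the J domain. HSP110 proteins exchange the nucleotide, and HSP90 with its co-chaperones completes the folding of kinases, steroid receptors and other clients. Under protein stress the transcription factor HSF1 binds repeats of nGAAn in promoters and raises many of these genes. The list is wider than the cytosol: HSPA9, HSPD1, HSPE1, TRAP1 and DNAJA3 work in mitochondria, HSPA13 enters the secretory pathway, and DNAJB12 and DNAJB14 sit in the membrane of the endoplasmic reticulum.

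The miR-28 precursor gives miR-28-5p and miR-28-3p, and the genotypes differ in the induction of this precursor. The sequence of miR-28-3p is shown with its seed, bases 2 to 8, in capitals (RefSeq, GRCh38.p14, chr3:188688834-188688855, plus strand).
hsa-miR-28-3p: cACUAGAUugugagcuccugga

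The RefSeq promoter windows, 250 bases before to 50 after each start, were available for 37 of the 42 genes as 52 windows. They were searched on both strands for 3 heat shock element units in a row (GAANNTTCNNGAA, whose reverse complement is TTCNNGAANNTTC) and for 2 units (GAANNTTC or TTCNNGAA, each its own reverse complement); every match of 3 units also holds matches of 2. Matches of 3 units occurred in 7 of the 52 windows (13.5%), those of CHORDC1, DNAJA1, DNAJB6, HSP90AA1, HSP90AB1, HSPA8 and HSPD1, and in 0.49% of all 35116 windows of this length. At least 2 units occurred in 32.7% of the chaperone windows and 13.5% of all windows. Of the 5 genes that were lower in miR-28 cells at 24 h (below), DNAJA1 had a match of 3 units, DNAJB1 had 2 units and no match of 3, and the letters were not in the windows of HSPH1, DNAJA2 or DNAJC9. The windows of the first 3 of these and of HSP90AA1, which was not called, are printed to show the presence and absence of the letters; capitals mark the matches of 2 or more units, and a match is no evidence of binding. DNAJB1 and HSP90AA1 have further windows that are not printed. All are on GRCh38.p14: DNAJA1 at chr9:33025023-33025322 (plus strand), DNAJB1 at chr19:14518348-14518647 (minus strand), HSPH1 at chr13:31162339-31162638 (minus strand) and HSP90AA1 at chr14:102086995-102087294 (minus strand).
DNAJA1: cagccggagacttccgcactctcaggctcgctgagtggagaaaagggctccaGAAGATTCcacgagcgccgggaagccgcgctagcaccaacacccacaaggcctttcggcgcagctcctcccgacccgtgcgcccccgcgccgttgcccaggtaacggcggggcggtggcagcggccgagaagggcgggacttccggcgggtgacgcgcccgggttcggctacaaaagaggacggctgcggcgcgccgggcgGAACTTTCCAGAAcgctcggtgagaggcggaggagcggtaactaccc
DNAJB1: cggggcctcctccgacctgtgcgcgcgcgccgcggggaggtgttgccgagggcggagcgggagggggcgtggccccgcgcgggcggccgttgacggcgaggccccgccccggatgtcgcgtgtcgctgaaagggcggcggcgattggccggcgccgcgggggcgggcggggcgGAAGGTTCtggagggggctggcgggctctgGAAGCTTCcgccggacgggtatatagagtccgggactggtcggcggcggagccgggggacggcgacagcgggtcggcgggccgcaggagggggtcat
HSPH1: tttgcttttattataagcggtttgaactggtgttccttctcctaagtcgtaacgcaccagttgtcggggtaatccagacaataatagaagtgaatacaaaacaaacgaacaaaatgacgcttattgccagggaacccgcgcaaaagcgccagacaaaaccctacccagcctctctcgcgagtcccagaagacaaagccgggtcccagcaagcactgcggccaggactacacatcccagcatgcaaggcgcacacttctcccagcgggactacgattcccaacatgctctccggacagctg
HSP90AA1: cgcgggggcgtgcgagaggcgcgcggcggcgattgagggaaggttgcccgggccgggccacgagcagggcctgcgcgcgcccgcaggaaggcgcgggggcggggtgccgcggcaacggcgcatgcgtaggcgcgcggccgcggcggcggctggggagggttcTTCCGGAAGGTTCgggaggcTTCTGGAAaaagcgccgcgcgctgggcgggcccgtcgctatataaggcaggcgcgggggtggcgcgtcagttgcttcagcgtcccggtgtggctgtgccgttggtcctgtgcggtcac

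Array scaling was uniform, with a trimmed mean intensity of 500.07 to 500.08 on every array and a median of 73.2 to 93.2. Arrays of a group correlated at r = 0.954 to 0.969 over genes. Of 7 B-cell markers, 6 had a probe set, all above the filter, and their summed intensity ran from 48751 to 64461 over the arrays; the T-cell, myeloid, NK-cell and fibroblast or epithelial lists summed to at most 683. The 3' control probe sets of ACTB were brighter than the 5' ones by more than 1 on the log2 scale, a sign of lower RNA quality, on 2 arrays: control 24 h B2 (1.59) and miR-28 12 h B2 (1.05). The calls and the members' medians are also given without both arrays.

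The main comparison set miR-28 cells against control cells at each time. At 24 h, 5 of the 33 tested chaperone genes were lower in miR-28 cells and 0 were higher: the DNAJ proteins DNAJA2, DNAJA1, DNAJB1 and DNAJC9, and HSPH1 of the HSP110 family. At 12 h DNAJA2 alone was lower and 0 were higher. The threshold for a call was a limma p of 0.05 after Benjamini-Hochberg adjustment over all 11380 genes. By this rule 0.536% of all genes were called at 12 h (25 higher, 36 lower; 0.22% and 0.316%) and 5.35% at 24 h (296 higher, 313 lower; 2.6% and 2.75%). With each array centred on its median the split was 12 higher and 33 lower at 12 h, and 395 higher and 149 lower at 24 h. The members' median log2 difference was 0.02 at 12 h and -0.13 at 24 h, beside 0.01 and 0.02 for all genes; with each array centred on its median, the 24 h values were -0.08 and 0.08. At 24 h, 22 of the 33 values were below 0 (66.7%, beside 46.1% of all genes), against 14 of 33 (42.4%) at 12 h. Without both arrays of high ACTB ratio, DNAJA2, DNAJA1, DNAJB1 and HSPH1 were still called at 24 h (adjusted p = 0.000222, 0.0164, 0.0162 and 0.0201), and DNAJC9 was not (0.0855), and the members' median was 0.02 at 12 h and -0.12 at 24 h.

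**Figure D1:**
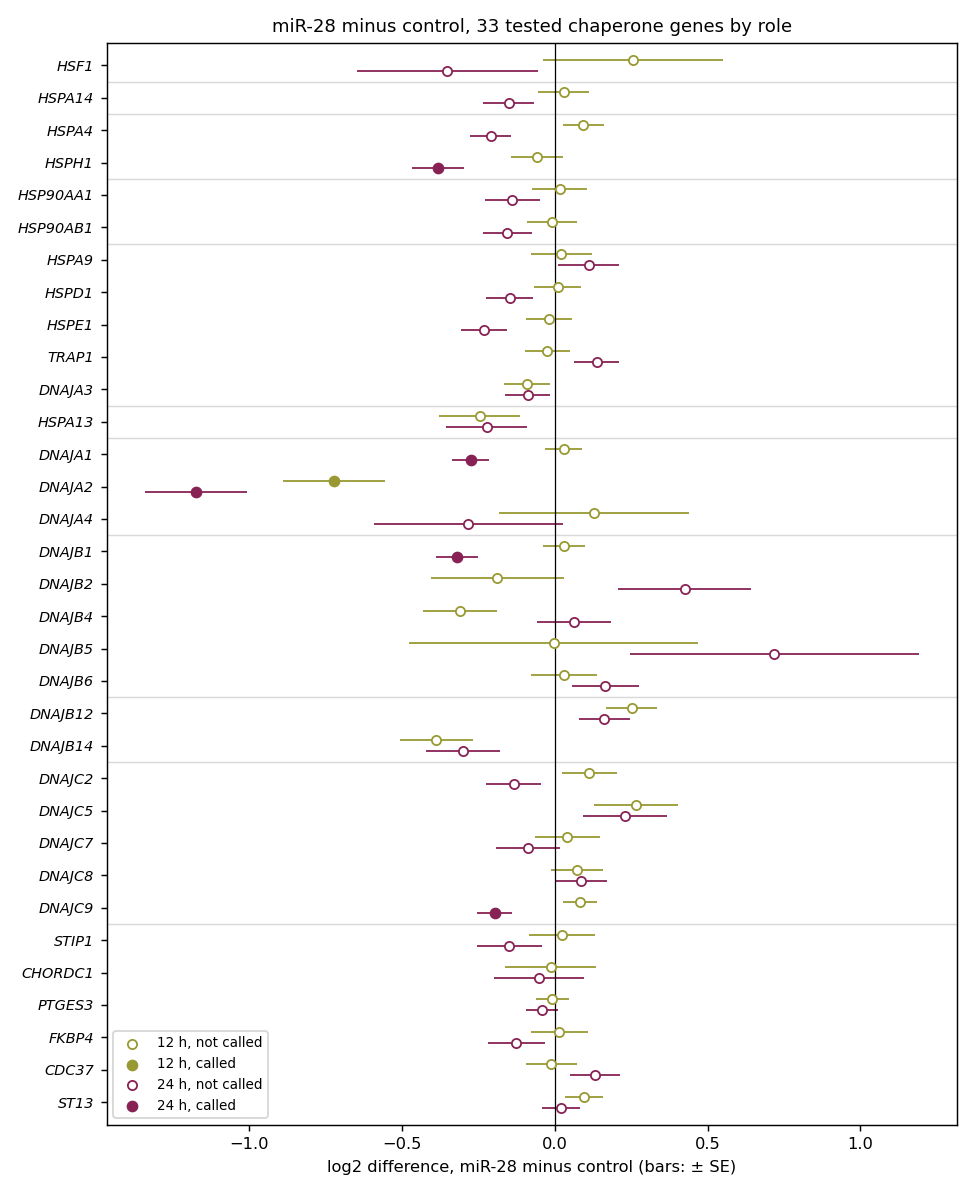
Log2 difference in intensity, miR-28 minus control (x axis, with standard error), for each of the 33 tested genes (y axis, grouped by role), at 12 h and 24 h with 6 arrays per group. Filled points passed the adjusted p threshold: DNAJA2 at 12 h, and DNAJA2, DNAJA1, DNAJB1, DNAJC9 and HSPH1 at 24 h, all to the left of 0.

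No member's miR-28 difference changed between 12 h and 24 h by the test of the difference itself: 0 of 33 passed, as did 0 of 11380 genes (0%), while 6 members and 787 genes had an unadjusted limma p under 0.05. Whether the calls at 24 h are particular to that time is therefore not shown. The change of the difference was largest among the called genes for DNAJA2 (-0.45 ± 0.24 SE), DNAJB1 (-0.35 ± 0.10) and HSPH1 (-0.32 ± 0.12).

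HSF1, the main regulator of the heat shock response, had a scattered signal. It ran from 242 to 622 (median 447) in control and from 278 to 701 (median 489) in miR-28 cells at 12 h. At 24 h it ran from 461.1 to 625.1 (median 565.3) in control and from 193 to 802 (median 514) in miR-28 cells. The groups overlapped at both times, and the log2 difference was 0.26 ± 0.30 SE at 12 h and -0.35 ± 0.30 at 24 h, neither called. A second HSF1 set gave -0.03 ± 0.28 at 12 h and -0.02 ± 0.28 at 24 h.

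Of the cytosolic HSP70 proteins only HSPA14, which works with the ribosome-bound chaperone complex, was tested. At 24 h its intensity ran from 4778 to 6844 (median 5982) in control and from 4947 to 5483 (median 5138) in miR-28 cells. The ranges overlapped, and the difference of -0.15 ± 0.08 SE did not pass (adjusted p = 0.338, limma).

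HSPH1, a nucleotide exchange factor of HSP70 in the HSP110 family, ran from 17543 to 23757 (median 19265) in the 6 control arrays at 24 h. In the 6 miR-28 arrays it ran from 12990 to 17680 (median 15010). All but 1 of the miR-28 arrays lay below every control array. HSPH1 was 1.30-fold lower (log2 difference -0.38 ± 0.09 SE, adjusted p = 0.00882, limma). With the median over its 3 probe sets the difference was -0.20 and was not called (adjusted p = 0.445). Population B held more of the difference: the control means were 18050 in A and 21856 in B, against 15900 and 14712 in miR-28 cells. Within population A the difference was -0.19 (adjusted p = 0.555), and within B it was -0.58 (adjusted p = 0.139). At 12 h the groups overlapped, with control arrays from 17099 to 20599 (median 17616) and miR-28 arrays from 15805 to 19583 (median 17140). The difference was then -0.06 ± 0.09. HSPA4, the other tested HSP110 member, ran from 8968 to 10437 (median 9384) in control and from 7493 to 9168 (median 8238) in miR-28 cells at 24 h. All but 1 of its miR-28 arrays lay below every control array, and its difference of -0.21 ± 0.07 did not pass (adjusted p = 0.0708).

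Both cytosolic HSP90 genes had values below 0 at 24 h and neither was called in the main fit. With the processing changed, HSP90AA1 was called in 1 of 37 alternative settings and HSP90AB1 in 0. HSP90AA1, the stress-inducible isoform, ran from 45138 to 58836 (median 50369) in control and from 41744 to 54678 (median 46459) in miR-28 cells, a difference of -0.14 ± 0.09 SE (adjusted p = 0.448, limma). HSP90AB1, the constitutive isoform, ran from 34539 to 44793 (median 39833) in control and from 32184 to 37727 (median 35746) in miR-28 cells, a difference of -0.16 ± 0.08 (adjusted p = 0.308). By these brightest sets the groups overlapped for both genes. Another HSP90AA1 set did not overlap at 24 h, with the lowest control array at 43891.5 and the highest miR-28 array at 42694.4. The same held for a further HSP90AA1 set (32281.3 and 30751.8). Their differences of -0.21 ± 0.07 and -0.23 ± 0.07 were not called (adjusted p = 0.125 and 0.0748, limma over all probe sets). The share of all probe sets without overlap was not counted. At 12 h the brightest sets of HSP90AA1 and HSP90AB1 gave 0.02 ± 0.09 and -0.01 ± 0.08.

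Of the DNAJ proteins of class A, which carry a zinc-binding region beside the J domain, DNAJA2 had the largest difference among the called genes. Its control arrays at 12 h ran from 1740 to 2895 (median 2113) and its miR-28 arrays from 955 to 1539 (median 1335). At 24 h the control arrays ran from 2081 to 3996 (median 2648) and the miR-28 arrays from 949 to 1565 (median 1176). The groups overlapped at neither time. DNAJA2 was 1.65-fold lower at 12 h (log2 difference -0.72 ± 0.17 SE, adjusted p = 0.0497, limma) and 2.26-fold lower at 24 h (-1.17 ± 0.17, adjusted p = 0.00015). The difference at 24 h was -1.18 in population A and -1.17 in population B, adjusted p = 0.0664 and 0.131 with fewer arrays.

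A second DNAJA2 probe set of nearly the same mean signal did not give this result. Its difference was -0.12 ± 0.14 SE at 12 h and 0.23 ± 0.14 at 24 h (adjusted p = 0.915 and 0.446, limma over all probe sets). The median over both sets gave -0.47 at 24 h (adjusted p = 0.0517). Leaving out control 24 h B2, the array of the highest DNAJA2 value and of the highest ACTB ratio, made the second set the brighter one, and the gene's value at 24 h then was 0.21 (adjusted p = 0.478). The first set without that array gave -1.06 (adjusted p = 0.000678), and without both arrays of high ACTB ratio -1.06 (adjusted p = 0.000459). At 12 h the call was lost on leaving out any of 18 arrays, with adjusted p between 0.0505 and 0.851, and held only without control 12 h A2 or A3, control 24 h A1 or B3, or miR-28 24 h A3 or B2. The value of 0.851 came without control 24 h B2, where the second set stood for the gene (-0.12). In the fit of all probe sets, the first set without that array gave -0.72 at 12 h (adjusted p = 0.049, limma). With all arrays its adjusted p in that fit was 0.0813. Without miR-28 12 h B2 the gene's difference was -0.63 (adjusted p = 0.126). Which transcripts each probe set reads was not examined.

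DNAJA1, the abundant HSP70 partner of class A, ran from 15904 to 17579 (median 16925) in control and from 12594 to 15544 (median 14173) in miR-28 cells at 24 h. Every miR-28 array lay below every control array. DNAJA1 was 1.21-fold lower (-0.27 ± 0.06 SE, adjusted p = 0.00759, limma), and its second probe set gave -0.35 ± 0.09 (adjusted p = 0.0432). With each array centred on its median the difference was -0.22 (adjusted p = 0.126). At 12 h the ranges overlapped, 16027 to 18451 (median 17481) in control and 16024 to 19498 (median 17667) in miR-28 cells, and the difference was 0.03 ± 0.06. DNAJA4 gave -0.28 ± 0.31 at 24 h.

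**Figure D2:**
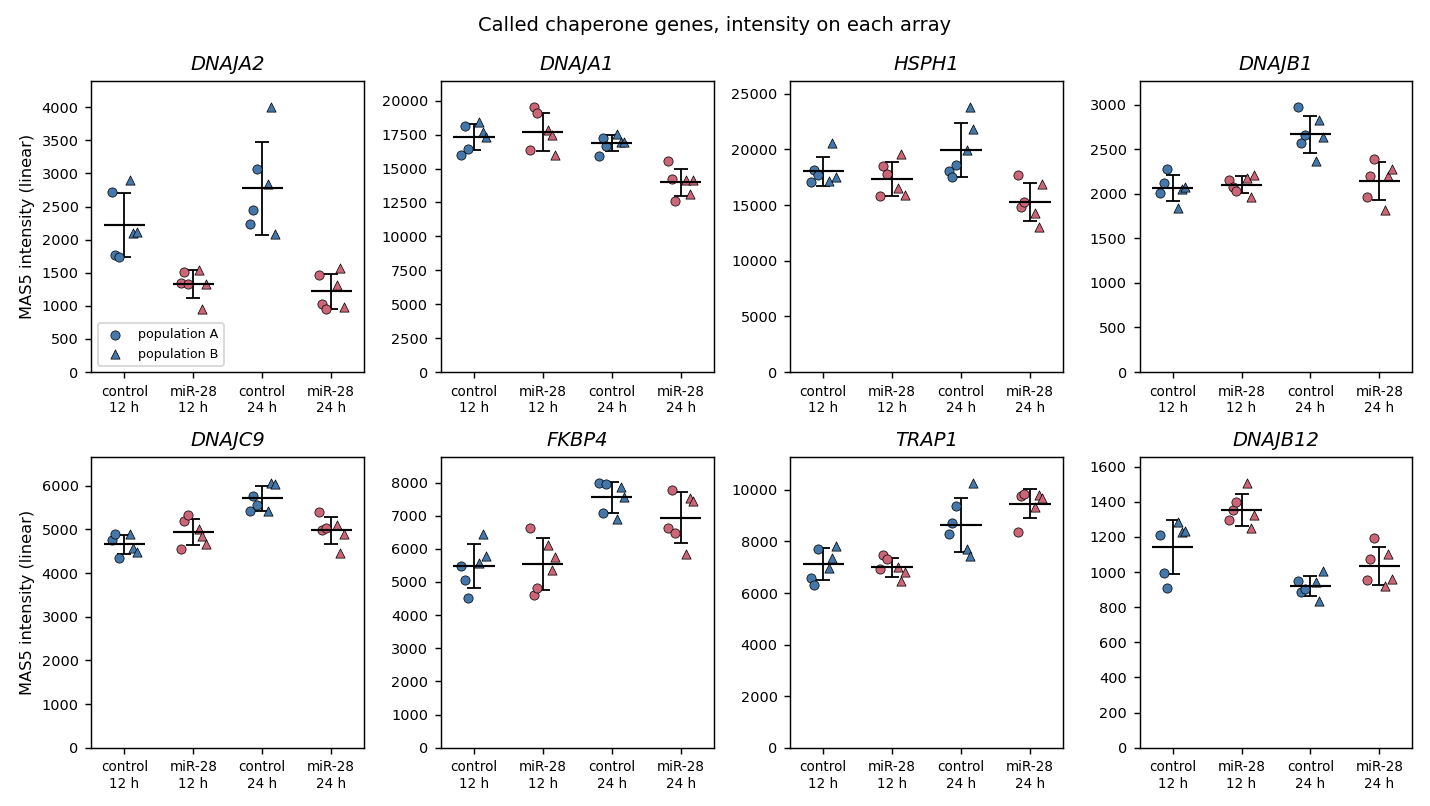
MAS5 intensity (y axis, linear, from 0) on each of the 24 arrays for the 8 chaperone genes called in any comparison, in the 4 groups; circles are population A, triangles population B, and the line and bar are the mean ± SD of 6 arrays. The miR-28 arrays of DNAJA2 lie below the control arrays at both times, and those of DNAJA1 and DNAJC9 at 24 h.

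DNAJB1, the class B partner of HSP70 and a target of HSF1, ran from 2368 to 2968 (median 2646) in control and from 1822 to 2387 (median 2201) in miR-28 cells at 24 h. All but 1 of the miR-28 arrays lay below every control array. DNAJB1 was 1.25-fold lower (-0.32 ± 0.07 SE, adjusted p = 0.00665, limma), by -0.32 within population A and -0.31 within B. It was not called within either population alone, where arrays were fewer. A second DNAJB1 set overlapped between the groups and gave -0.29 ± 0.12, not called (adjusted p = 0.198, limma over all probe sets). At 12 h the arrays of the brightest set ran from 1836 to 2274 (median 2069) in control and from 1961 to 2210 (median 2114) in miR-28 cells, with a difference of 0.03 ± 0.07. The other class B genes DNAJB2, DNAJB4, DNAJB5 and DNAJB6 had values from 0.06 to 0.72 at 24 h by their brightest sets, and none was called. A second set of DNAJB4 gave -0.13 ± 0.11. DNAJB5 had the widest error, 0.72 ± 0.47.

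DNAJB12 and DNAJB14, membrane proteins of the endoplasmic reticulum that take part in the disposal of misfolded membrane proteins, differed in sign. DNAJB12 was 0.25 ± 0.08 SE at 12 h and 0.16 ± 0.08 at 24 h (adjusted p = 0.261 and 0.307, limma). DNAJB14 ran from 1105 to 1858 (median 1361) in control and from 946 to 1211 (median 1041) in miR-28 cells at 12 h, a difference of -0.39 ± 0.12 (adjusted p = 0.224). At 24 h it ran from 986 to 1448 (median 1125) and from 752 to 1046 (median 955), a difference of -0.30 ± 0.12 (adjusted p = 0.161). The groups overlapped at both times.

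DNAJC9, a class C protein that also binds histones H3 and H4, ran from 5411 to 6056 (median 5661) in control and from 4452 to 5391 (median 5016) in miR-28 cells at 24 h. Every miR-28 array lay below every control array, by a narrow margin. DNAJC9 was 1.15-fold lower (-0.20 ± 0.06 SE, adjusted p = 0.0412, limma). This call was lost on leaving out control 12 h A1 (adjusted p = 0.0517), control 24 h A2, A3, B2 or B3 (0.0685, 0.0504, 0.0773 and 0.0914) or miR-28 24 h A2, A3, B1, B2 or B3 (0.0624, 0.062, 0.0603, 0.108 and 0.078), while the difference stayed between -0.22 and -0.16. It was also lost with no filter (adjusted p = 0.146), with each array centred on its median (0.317), with no population block (0.0509) and with the median over its 3 probe sets (0.404). DNAJC2, a ribosome-bound partner of HSPA14, ran from 5770 to 7923 (median 6661) in control and from 4926 to 6718 (median 6191) in miR-28 cells at 24 h, overlapping, with a difference of -0.13 ± 0.09. By their brightest sets the remaining class C genes DNAJC5, DNAJC7 and DNAJC8 were between -0.09 and 0.23 and none was called. Outside this range were another set of DNAJC7 (-0.46 ± 0.15) and another of DNAJC5 (0.58 ± 0.20). Neither was called (adjusted p = 0.113 and 0.126, limma over all probe sets).

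Of the 6 tested co-chaperones of HSP90 and HSP70, 0 were called at either time. This is near the share of all genes, 0.536% at 12 h and 5.35% at 24 h. By their brightest sets the values ran from -0.15 (STIP1, which links the 2 chaperones) to 0.13 (CDC37, which brings kinases to HSP90) at 24 h. A second STIP1 set gave -0.21 ± 0.12 and was not called. PTGES3, also called p23, ran from 31844 to 36562 (median 32883) in control and from 30439 to 34455 (median 32237) in miR-28 cells at 24 h, a difference of -0.04 ± 0.05 SE. The arrays of both groups overlapped over most of their range.

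Of the 5 mitochondrial chaperones 0 were called between genotypes in the main fit, near the share of all genes (0.536% at 12 h and 5.35% at 24 h). HSPD1, the HSP60 chamber, ran from 49865 to 62372 (median 55619) in control and from 45070 to 56472 (median 50131) in miR-28 cells at 24 h, a difference of -0.15 ± 0.08 SE. Another HSPD1 set did not overlap at 24 h, with the lowest control array at 34521.8 and the highest miR-28 array at 34233.6, and was not called (-0.20 ± 0.07). HSPE1, its HSP10 lid, ran from 20995 to 22962 (median 22499) in control and from 17754 to 20025 (median 18864) in miR-28 cells. Its groups did not overlap, yet its difference of -0.23 ± 0.08 did not pass (adjusted p = 0.0734, limma). The genes of HSPD1 and HSPE1 lie head to head with their start sites close together. TRAP1 (0.14 ± 0.07) and HSPA9 (0.11 ± 0.10) had values above 0, and DNAJA3 was at -0.09 ± 0.07. The sign of HSPA9 was that of its brightest set. Its other sets gave -0.02 ± 0.09, -0.25 ± 0.12 and 0.03 ± 0.42 at 24 h, none called. HSPA13, of the secretory pathway, ran from 977 to 1421 (median 1141) in control and from 851 to 1277 (median 929) in miR-28 cells, overlapping, with a difference of -0.22 ± 0.13.

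Groups that did not overlap, all 6 arrays against all 6, were counted as a second description. At 12 h this held for DNAJA2 alone, lower in miR-28 cells, beside 0.422% of all genes. At 24 h it held for DNAJA1, DNAJA2, DNAJC9 and HSPE1, all lower, 4 of 33 beside 1.9% of all genes, and for 0 members higher beside 1.6%. By population means at 24 h, 16 of the 33 genes were lower in both miR-28 populations than in both control populations, 6 were higher in both, and 11 were mixed, beside 21.3% of all genes lower and 26.2% higher. At 12 h these counts were 5, 8 and 20, beside 16.8% of all genes lower and 19.8% higher. Between the times, the arrays of DNAJB1, DNAJC9 and FKBP4 were all higher at 24 h in control cells (2.36% of all genes), and in miR-28 cells those of TRAP1 were all higher (1.96%) and those of DNAJA1 and DNAJB12 all lower (1.42%). Without the 2 arrays of high ACTB ratio the members separated between genotypes at 24 h, and with time in miR-28 cells, were the same. At 12 h DNAJB12 was then also separated, higher in miR-28 cells (1 of 33). In control cells HSPA9 was then also all higher at 24 h, which made 4 of 33. Groups of fewer arrays separate more easily, and the shares of all genes without both arrays were not counted.

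Reading each probe set by itself, 0 of the 76 member sets above the filter were called at 12 h (0.165% of all 27306 sets, 0.0439% higher and 0.121% lower) and 5 at 24 h, all lower (2.75% of all sets, 1.27% higher and 1.48% lower). These 5 were the brightest sets of DNAJA2, DNAJB1 and HSPH1 and both sets of DNAJA1. The set of DNAJC9 that was called as a gene was not called here (adjusted p = 0.0902, limma). Of 23 genes with 2 or more sets above the filter, 15 had the same sign at 24 h in all of them. Among these, DNAJC5 and DNAJC8 were above 0 in every set. The sets differed in sign for DNAJA2, DNAJB4, DNAJB12, DNAJC7, FKBP4, HSPA4, HSPA9 and ST13. The matching share among all genes with several sets was not counted. The 4 sets of HSP90AA1 lay between -0.25 and -0.14 and the 3 of HSP90AB1 between -0.18 and -0.10, none called. The 4 sets of HSPD1 lay between -0.54 and -0.15, and the 3 of HSPH1 between -0.38 and -0.20.

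**Figure D3:**
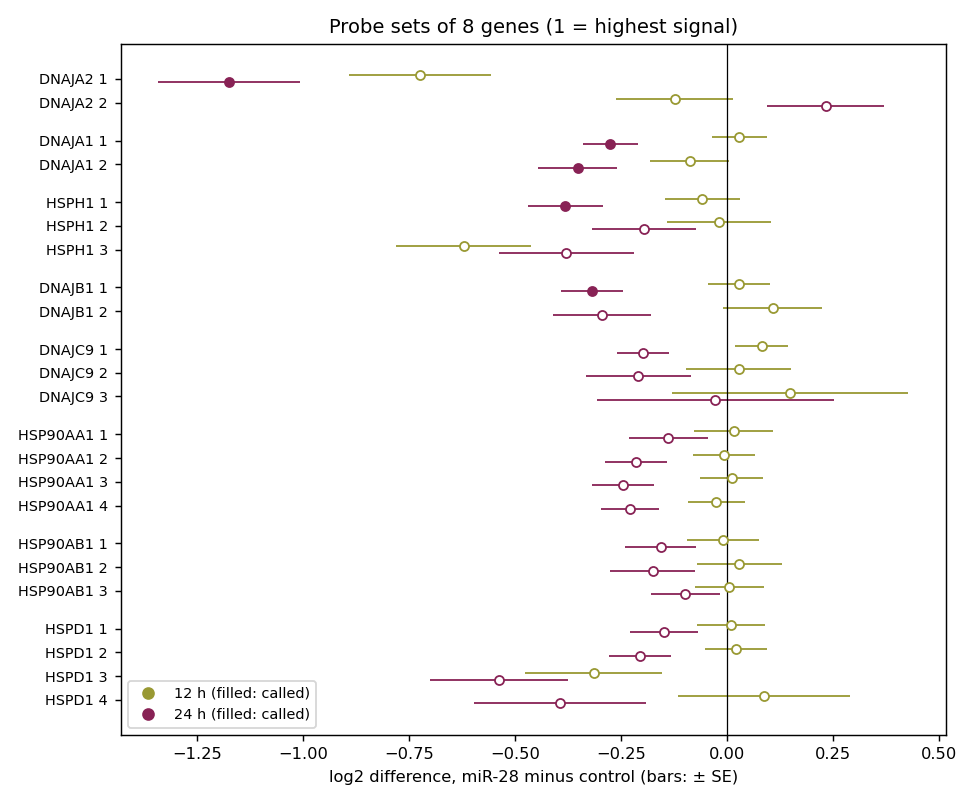
Log2 difference, miR-28 minus control (x axis, with standard error), for each probe set above the filter of 8 chaperone genes (y axis, numbered from the highest signal), at 12 h and 24 h; filled points were called over all 27306 probe sets. The 2 sets of DNAJA2 lie apart at 24 h, at -1.17 and 0.23, while both sets of DNAJA1 and all 4 of HSP90AA1 lie to the left of 0.

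The change from 12 h to 24 h was read within each genotype. These comparisons share their arrays with those above, so their values are given side by side and not as further support. The summed B-cell markers also differed by time, from 55904 to 64461 at 12 h and from 48751 to 56074 at 24 h, and their part in the changes below was not tested. In control cells DNAJB1, DNAJC9, FKBP4 and TRAP1 rose and DNAJB12 fell, 5 of 33 beside 6.14% of all genes (3.6% higher, 2.54% lower). In miR-28 cells TRAP1 rose and DNAJA1 and DNAJB12 fell, 3 of 33 beside 4.66% of all genes (302 higher, 228 lower, 2.65% and 2%). With each array centred on its median the split of all genes was 529 higher and 57 lower, and of the members FKBP4 and TRAP1 were called, both higher. The members' median change was 0.08 in control and -0.03 in miR-28 cells, beside 0.00 for all genes in both. Without both arrays of high ACTB ratio the medians were 0.06 and -0.01. DNAJB1, DNAJC9, FKBP4 and TRAP1 were then still called in control cells (adjusted p = 0.00739, 0.0107, 0.0142 and 0.0198), and TRAP1, DNAJA1 and DNAJB12 in miR-28 cells (0.00497, 0.00727 and 0.0159).

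DNAJB1 rose in control cells by 0.37 ± 0.07 SE on the log2 scale (adjusted p = 0.00256, limma). Its 24 h control arrays all lay above its 12 h control arrays, and in miR-28 cells the change was 0.02 ± 0.07. DNAJC9 likewise rose in control cells without overlap, from 4354 to 4892 (median 4658) at 12 h to the range given above at 24 h, by 0.29 ± 0.06 (adjusted p = 0.00313), a call lost with the median over its probe sets (0.28, adjusted p = 0.243). Its change in miR-28 cells was 0.01 ± 0.06. DNAJA1 fell in miR-28 cells by 0.34 on the log2 scale (SE 0.06, adjusted p = 0.00312), every 24 h array below every 12 h array, and in control cells its change was -0.04 ± 0.06. With each array centred on its median the fall of DNAJA1 did not pass (-0.24, adjusted p = 0.0964). HSPH1 changed by 0.14 ± 0.09 in control and -0.18 ± 0.09 in miR-28 cells, and DNAJA2 by 0.31 ± 0.17 and -0.14 ± 0.17, none of them called.

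FKBP4, an immunophilin of the HSP90 complex of steroid receptors, ran from 4510 to 6452 (median 5525) at 12 h and from 6904 to 7980 (median 7705) at 24 h in control cells. These groups did not overlap, and the rise was 0.47 ± 0.10 SE (adjusted p = 0.00457, limma). In miR-28 cells FKBP4 ran from 4613 to 6635 (median 5549) and then from 5830 to 7775 (median 7035), a change of 0.33 ± 0.10 that did not pass (adjusted p = 0.0555). FKBP4 thus had a value above 0 in both genotypes.

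TRAP1, the mitochondrial HSP90, ran from 6454 to 7461 (median 6974) at 12 h and from 8367 to 9854 (median 9706) at 24 h in miR-28 cells, without overlap. It rose by 0.43 ± 0.08 SE (adjusted p = 0.00247, limma). In control cells it ran from 6302 to 7823 (median 7178) and then from 7452 to 10259 (median 8502), overlapping, and rose by 0.27 ± 0.08 (adjusted p = 0.0365). The control call was lost on leaving out any of control 12 h A1, A2, B1 or B2 (adjusted p = 0.0688, 0.0845, 0.0691 and 0.052) or control 24 h A1, A2, A3 or B3 (0.0521, 0.0642, 0.0848 and 0.0889), with the rise between 0.22 and 0.31 over all arrays left out in turn. It was also lost with no filter (0.116) and with quantile normalization (0.0705).

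DNAJB12 ran from 1253 to 1506 (median 1336) at 12 h and from 920 to 1195 (median 1018) at 24 h in miR-28 cells, without overlap, and fell by 0.39 on the log2 scale (SE 0.09, adjusted p = 0.0114, limma). In control cells it ran from 907 to 1283 (median 1218) and then from 838 to 1006 (median 924), overlapping, and fell by 0.30 (SE 0.09, adjusted p = 0.0424). The control call was lost on leaving out any of control 12 h A1, B1, B2 or B3, control 24 h A1, A2, A3, B1 or B2, miR-28 12 h A2 or A3, or miR-28 24 h A2, 12 arrays in all, with adjusted p from 0.0504 to 0.105. It was also lost without both arrays of high ACTB ratio (0.0887), with no filter (0.123), with quantile normalization (0.0547) and with each array centred on its median (0.0938). The call in miR-28 cells was lost with median centring (0.0727). With the median over the gene's 4 probe sets DNAJB12 changed by -0.16 in control and -0.17 in miR-28 cells, neither called (adjusted p = 0.582 and 0.574).

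**Figure D4:**
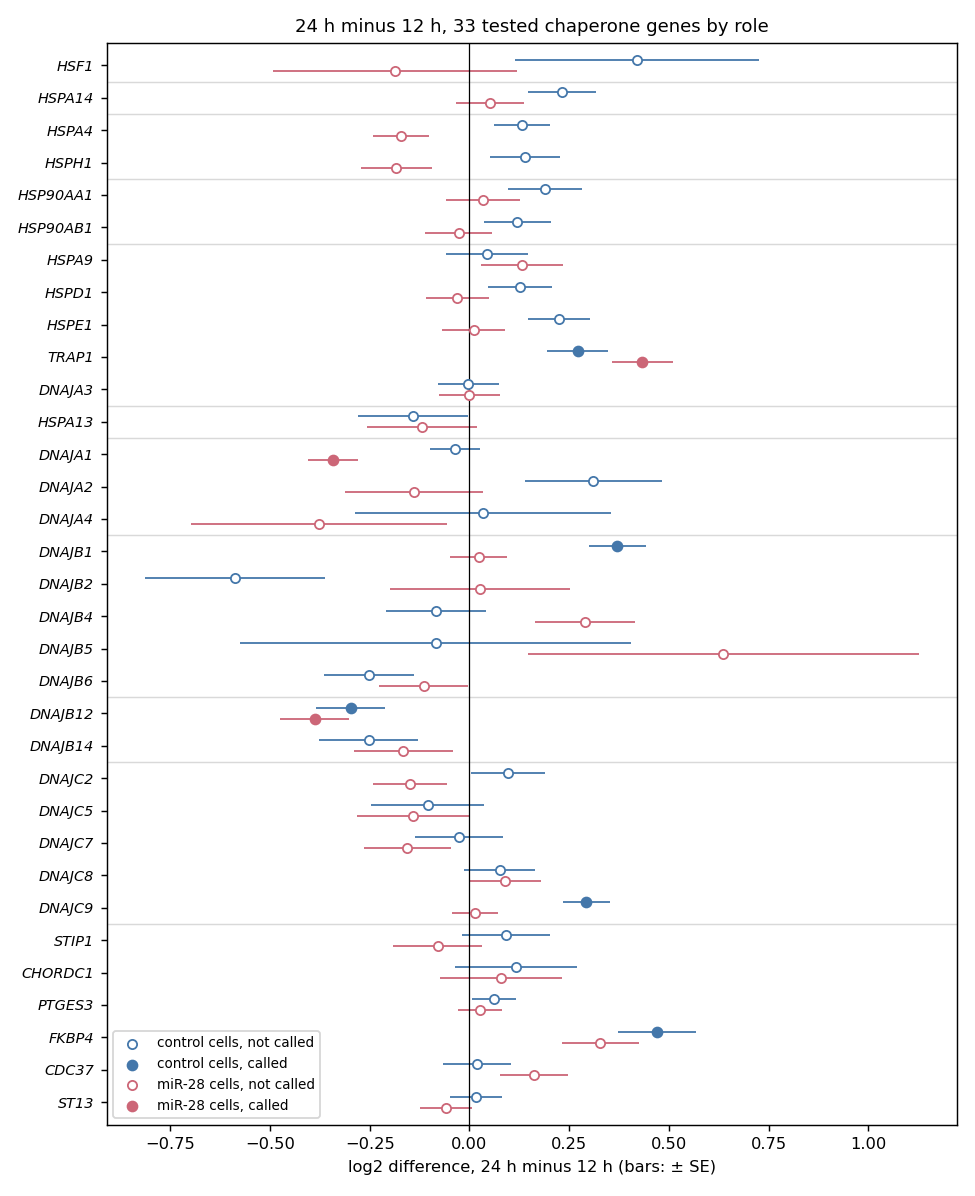
Log2 difference in intensity, 24 h minus 12 h (x axis, with standard error), in control and in miR-28 cells for the 33 tested genes (y axis, grouped by role), 6 arrays per group. TRAP1 and DNAJB12 are called in both genotypes; DNAJB1, DNAJC9 and FKBP4 are called in control cells, and DNAJA1 in miR-28 cells.

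The list left out other genes of protein folding, and 77 of them (other DNAJ genes, the TRiC and prefoldin subunits, nucleotide exchange factors, further co-chaperones, other small HSPs and regulators of HSF1) were read in the same fit. Of these 56 were tested. At 12 h 0 were called (beside 0.536% of all genes) and at 24 h 1 was, DNAJC12 (beside 5.35%). The median was -0.01 at both times. DNAJC12, a partner of aromatic amino acid hydroxylases, ran from 3670 to 4642 (median 4018) in control and from 4755 to 5757 (median 5380) in miR-28 cells at 24 h, every miR-28 array above every control array. Its difference was 0.38 ± 0.09 SE (adjusted p = 0.0135, limma), opposite in sign to the 5 called chaperones. In the time comparisons STUB1, a ubiquitin ligase that binds HSP70 and HSP90, rose in control cells by 0.43 ± 0.08. In miR-28 cells DNAJC12 (0.73 ± 0.09) and TSC1 (0.43 ± 0.12), an HSP90 co-chaperone in the tuberous sclerosis complex, rose, and DNAJC16 fell by 0.44.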

How the data were processed

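RNA of 24 P3HR1 cultures was measured on Affymetrix arrays. Intensities were computed with MAS5 by the authors, per the submitters' processing notes, and the deposited intensity table (54675 probe sets, 62 of them controls) was used as it stands. No dose, label or value was inferred from the data. The intensities were taken to log2 after adding 8. Probe sets with 1 gene symbol (41091) were kept, the brightest stood for its gene, and genes with a mean log2 value under 6.108, the median of all non-control sets, were left out. Log2 differences are therefore of log2(intensity + 8), which understates changes of dim genes. One limma model (limma 3.58.1, R 4.3.3) of the 4 groups was fitted to all 11380 genes, with a random block for the bulk population (consensus correlation -0.0229), and p-values were adjusted by Benjamini-Hochberg per comparison. As this correlation was negative, the block did not widen the errors of the genotype comparisons. With no block fewer genes were called between genotypes, 18 higher and 34 lower at 12 h and 256 higher and 275 lower at 24 h. A second fit took all 27306 probe sets above the filter.

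The members and lists were chosen with earlier results of these data known. Genes are named in full where called in any comparison or of the highest signal in their role. Whether the letters and numbers of arrays (A1 to B3) pair them across groups is not stated. Correlations of same-label deviations ran from -0.0938 to 0.0695, which cannot show that arrays were not handled in pairs. Depth does not apply to arrays, and their number limits the precision. Promoter and miRNA sequences are from RefSeq (GRCh38.p14).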

Additional observations from a re-analysis of the deposited data

Results flagged for a closer look

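Of 64 groups of 6 arrays, 4 for each of the 16 members named in full, 3 held an array far from the other 5 (chance gives about 1 group in 20). DNAJA2 was at 955.056 on miR-28 12 h B2, where the nearest other array of the group was at 1326.83, and this array has one of the 2 highest ACTB ratios. HSPH1 was at 20599 on control 12 h B2, with the nearest other array at 18119.8. TRAP1 was at 8366.72 on miR-28 24 h A1, with the nearest other array at 9322.17.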

How the results depend on the processing

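At 12 h 0 members were called with a pseudocount of 1, no filter, median centring, no population block, the replicate block, population means as the unit, the median over probe sets, population A or B alone, or without the 2 arrays of high ACTB ratio (chosen after seeing the data). At 24 h the count was 3 with median centring and 0 with population means or with either population alone, and 3 to 6 on leaving out each array, 3 without control 24 h B2. The genes called also changed: HSP90AA1, HSPD1 and HSPE1, not called in the main fit, were each called at 24 h in 1 of 37 alternative settings. DNAJA2 at 24 h ran from -1.25 to 0.21 on leaving out each array, the last without control 24 h B2, where another probe set became the brightest. Of the member probe sets at 24 h, 1 was called with no filter or with median centring and 0 with population means or a single population; leaving out each array gave 2 to 6, with 3 without control 24 h B3, miR-28 24 h A3 or B1 and 2 without miR-28 24 h B2. At 12 h leaving out each array gave 0 to 1 probe sets, 1 without control 24 h B2, and 0 to 1 genes. With time in control cells the count was 3 with no filter, quantile normalization or the median over probe sets and 0 with population means or a single population; it was 3 to 6 on leaving out each array, 3 without control 12 h B1 or B2 or control 24 h A1 or A2. In miR-28 cells it was 0 with population means or a single population and 3 to 4 otherwise on leaving out each array. The replicate block gave 4 members at 24 h (DNAJC9 lost, limma adjusted p = 0.0726). It gave 4 with time in control (DNAJB12 lost, 0.0629) and 4 in miR-28 cells. Whether arrays of the same label belong together across groups is not known. The members' median change with time in miR-28 cells was 0.07 with median centring. The 2 populations per genotype limit what population means can call.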
